A study of Mus musculus with 27 samples.

Results

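Divergent long non-coding RNAs (lncRNAs) are transcripts that start near the start of a protein-coding gene and lie on the opposite strand, so that the 2 transcripts run away from each other. In the deposited annotation of the mouse genome (build mm9, NCBIM37), 1975 of 36991 NONCODE lncRNA genes overlapped no protein-coding gene and had a 5' end within 5 kb of the 5' end of a coding gene on the other strand. They were chosen from the annotation alone, and no count entered the choice. They belonged to 1301 coding genes, of which 349 had more than 1 divergent lncRNA and 1 had 24, so that 1023 of the lncRNAs shared their coding gene with another. The 5' ends lay a median of 290 bases apart (interquartile range 132 to 1363.5), and 1395 pairs lay within 1 kb. The last lncRNAs inside the window were those of Arl4a, Ptprd and Tspan31, at 4986, 4990 and 4999 bases, and the first outside it were those of Cep97, Scn2b and Impdh1, at 5025, 5026 and 5030 bases. In 12 of the 1975 the transcripts faced each other across a short coding gene rather than lying head to head, and these are named as such where they appear. A single exon made up 871 of the lncRNAs, and the median exonic length was 1190 bases.

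Many mammalian promoters start transcription in both directions. The RNA made upstream of the coding gene is often short-lived, but part of it is spliced, polyadenylated and stable enough to be annotated as a lncRNA. Such promoters tend to be rich in CpG dinucleotides and poor in TATA boxes, and genes of transcription factors that pattern the embryo, several heart regulators among them, are known for lncRNAs at their starts. No function is annotated in the files for any of the lncRNAs described here, which carry only NONCODE numbers.

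The hearts came from C57BL/6J mice, an inbred laboratory strain, and the labels name no genetic change in any group. The groups were 4 hearts at 12 weeks of age after 4 weeks of transverse aortic constriction (TAC), an operation that narrows the aorta so that the heart pumps against raised pressure, 7 hearts of embryos at E13.5, 6 hearts of unoperated adults at 6 weeks and 6 at 16 weeks, and 4 sham-operated hearts at 12 weeks. Embryonic hearts were used whole and adult hearts as the ventricular apex. The labels do not say whether libraries of a group came from separate litters or operating days, so the p-values measure only the spread between these samples. Polyadenylated RNA was sequenced as single-end reads without strand information, so reads of a lncRNA and of anything transcribed from the opposite strand at the same place cannot be told apart.

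Total counts per library were 10411417 to 11846819 in TAC hearts, 7543375 to 12646039 at E13.5, 2092270 to 2682955 at 6 weeks, 2164604 to 2642307 at 16 weeks and 7958592 to 11561952 in sham hearts. The unoperated adults also differed from all other libraries in the base quality encoding given in the labels, so sham hearts were the adult group closest to the embryos in depth and encoding. Stage, whole heart against apex and, for unoperated adults, encoding and depth cannot be told apart. Adult libraries are labelled male apart from TAC replicate 4, which is labelled female, and the titles of the embryonic libraries give no sex. Y-linked counts went against the sex label in 2 libraries at 6 weeks, 2 at 16 weeks, 2 sham and 2 TAC libraries, and the counts of called lncRNAs are given with and without them. Markers of cardiac muscle were abundant in every adult group (summed over 7 genes, at least 87710 CPM, reads scaled to the library's size) and were lower at E13.5 (17510 to 23210), with all 7 passing the test. Epicardial markers summed to 175.9 to 240.6 CPM at E13.5 against 11.94 to 19.11 in sham hearts, and 4 of 4 were higher. Against sham hearts, erythroid markers were higher in 4 of 4, atrial ones in 3 of 3 tested and fibroblast ones in 6 of 7, and macrophage markers were lower in 5 of 5 tested, while the atrial marker Sln was listed at 0 in every library. In TAC hearts 6 of 7 fibroblast markers were higher, at a summed 2426 to 4915 CPM against 1119 to 1290 in sham hearts, and 2 of 5 tested macrophage markers were higher. Also in TAC hearts, 3 of 7 cardiac muscle markers were lower and 1 higher, both tested lymphocyte markers were higher, 1 of 2 tested epicardial markers was higher, 1 of 5 smooth muscle and pericyte markers was higher and 1 lower, and the 1 tested adipocyte marker was lower. The 1 tested atrial marker was higher, with atrial markers at a summed 2458 to 3885 CPM in TAC hearts against 208.2 to 242.6 in sham hearts. The part of these cell types in the results below was not tested, and in whole tissue fewer cells of a type and less RNA per cell cannot be told apart.

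To show what a promoter with a divergent lncRNA looks like, the 300 bases around the start of 5 coding genes are given from RefSeq (build GRCm38.p6), from 250 bases before to 50 bases after the start, 5' to 3' along the coding strand, with CpG dinucleotides in capitals. Hand2 is a heart regulator whose lncRNA moved against it in TAC hearts, Gcdh and Tbc1d22a have lncRNAs that start 106 and 80 bases away, Cyr61 moved together with its lncRNA, and Isl1 is an embryonic regulator. They lie on chr8:57320733-57321032 (+ strand, Hand2), chr8:84893872-84894171 (- strand, Gcdh), chr15:86214209-86214508 (+ strand, Tbc1d22a), chr3:145649936-145650235 (- strand, Cyr61) and chr13:116309639-116309938 (- strand, Isl1).
Hand2: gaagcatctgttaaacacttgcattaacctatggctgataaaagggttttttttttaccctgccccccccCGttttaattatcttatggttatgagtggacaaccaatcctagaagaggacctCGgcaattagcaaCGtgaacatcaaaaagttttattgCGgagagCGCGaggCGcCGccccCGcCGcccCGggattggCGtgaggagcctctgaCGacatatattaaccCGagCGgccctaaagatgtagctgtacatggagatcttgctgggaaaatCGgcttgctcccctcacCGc
Gcdh: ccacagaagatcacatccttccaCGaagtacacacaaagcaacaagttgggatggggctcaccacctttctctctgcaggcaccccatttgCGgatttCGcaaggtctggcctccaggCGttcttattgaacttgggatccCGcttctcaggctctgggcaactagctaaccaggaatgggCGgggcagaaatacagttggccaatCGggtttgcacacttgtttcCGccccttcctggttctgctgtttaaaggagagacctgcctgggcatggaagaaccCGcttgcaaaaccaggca
Tbc1d22a: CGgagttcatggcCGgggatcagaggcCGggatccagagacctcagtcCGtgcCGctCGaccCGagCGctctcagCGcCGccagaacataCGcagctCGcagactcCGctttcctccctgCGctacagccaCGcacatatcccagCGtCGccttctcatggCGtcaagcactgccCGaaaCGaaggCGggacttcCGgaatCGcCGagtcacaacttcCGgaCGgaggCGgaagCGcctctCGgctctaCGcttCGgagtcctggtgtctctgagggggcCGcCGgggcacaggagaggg
Cyr61: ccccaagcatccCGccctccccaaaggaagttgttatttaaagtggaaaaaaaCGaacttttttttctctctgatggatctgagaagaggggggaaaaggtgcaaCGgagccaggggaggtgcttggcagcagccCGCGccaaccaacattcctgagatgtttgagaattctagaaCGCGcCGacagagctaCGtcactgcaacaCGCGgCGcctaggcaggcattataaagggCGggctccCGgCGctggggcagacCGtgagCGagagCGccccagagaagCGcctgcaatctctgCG
Isl1: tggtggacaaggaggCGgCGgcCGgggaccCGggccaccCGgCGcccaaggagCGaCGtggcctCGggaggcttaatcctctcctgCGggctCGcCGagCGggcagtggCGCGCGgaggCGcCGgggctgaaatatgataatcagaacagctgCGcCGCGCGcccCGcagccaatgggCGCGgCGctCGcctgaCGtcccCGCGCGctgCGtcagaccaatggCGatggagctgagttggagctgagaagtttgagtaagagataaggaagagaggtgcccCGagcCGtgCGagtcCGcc
These stretches hold 17, 9, 33, 20 and 37 CpG. They were taken from the named genes whose length differs by at most 50 bases between RefSeq and the deposited mm9 annotation, since the start given by RefSeq may lie elsewhere in other genes. A TATAAA motif was found in the Cyr61 stretch and in none of the other 4, and CCAAT in those of Hand2, Gcdh and Isl1.

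Across the coding genes with a divergent lncRNA, 1029 of 1301 matched an entry of the RefSeq promoter table. Their 1015 distinct coding promoters held a median of 24 CpG in 300 bases (interquartile range 16 to 32), against 13 over all 17492 coding promoters (3.75 to 24). At least 10 CpG were present in 86.5% of them and in 57.2% of all coding promoters. The motif GGGCGG, the core of a GC box, was found on either strand in 68.6% against 46.3%, and CGGAAG, the core bound by ETS factors, in 32.5% against 21.5%. TATAAA went the other way, with 6.7% against 13.3%, and so did the MEF2 site of muscle genes, with 1.08% against 2.92%. CCAAT was alike, with 38.7% against 39.0%. Only 35.6% of the matched genes had the same length within 50 bases in RefSeq and in the deposited annotation, and the 363 promoters of that subset had a median of 23 CpG, with 85.7% holding at least 10. A motif match is a description of the letters in the window and not evidence of binding.

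Most divergent lncRNAs were close to the detection limit. Counts were present for 1231 of the 1975 in at least 1 of the 27 libraries, 817 had 10 or more counts in all libraries together and 262 had 100 or more. Of the 744 without a count, 462 have no exonic base outside another feature, and these are all the lncRNAs of that kind. All divergent lncRNAs together held 0.101% of the counts, and the 10 most abundant held 43.9% of that. A count was found in every library of the group for 410 lncRNAs in TAC hearts, 517 at E13.5, 142 at 6 weeks, 152 at 16 weeks and 391 in sham hearts. The unoperated libraries were the shallowest, and the groups also differ in their number of libraries.

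Per kb of exonic bases outside other features, the lncRNA lay far below its coding gene. The 629 pairs compared had 10 or more lncRNA counts, and both features had at least 50% of their exonic bases outside other features. Over these pairs, the median lncRNA level was 0.159 CPM per kb in TAC hearts, 0.228 at E13.5, 0.211 at 6 weeks, 0.195 at 16 weeks and 0.174 in sham hearts. The coding genes had medians of 7.23, 7.62, 6.76, 6.57 and 7.02 CPM per kb in the same groups. The lncRNA was above its gene in 5.41% to 7.15% of pairs, depending on the group.

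**Figure D1:**
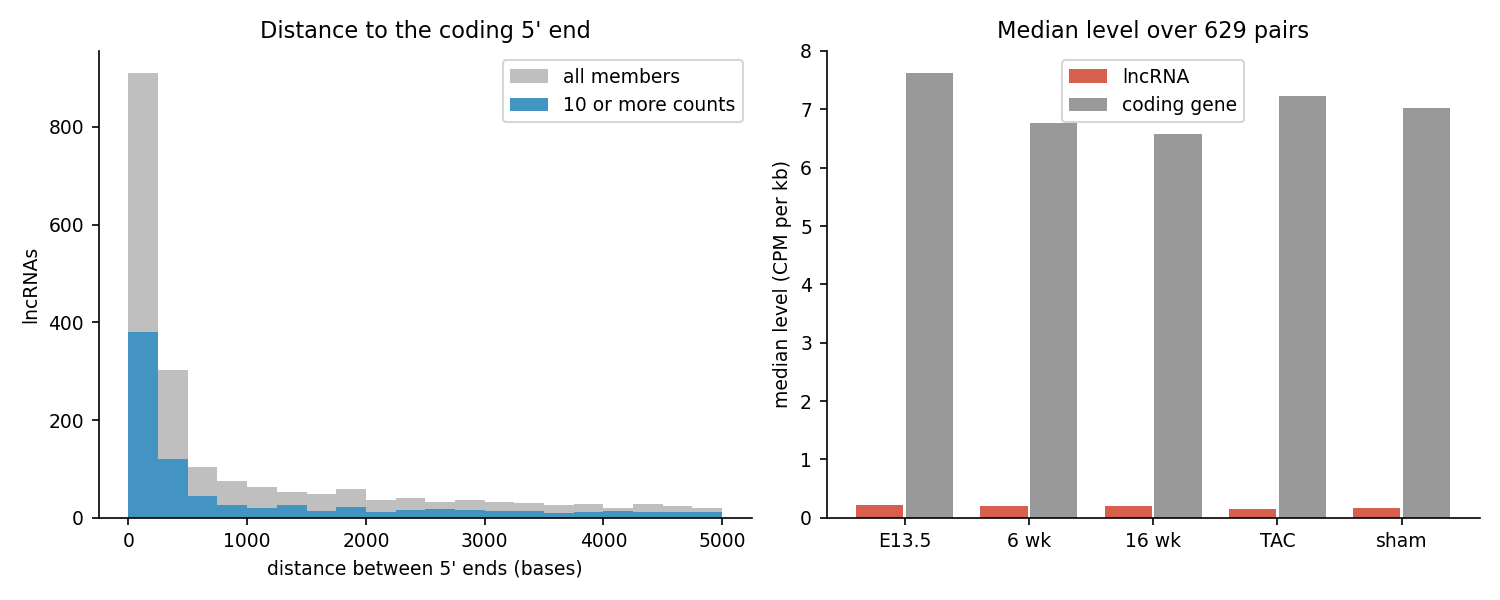
Left, distance in bases between the 5' ends of each divergent lncRNA and its coding gene, for all 1975 (grey) and for the 817 with 10 or more counts (blue); most pairs lie within 1 kb. Right, median level in CPM per kb of exonic bases outside other features over 629 pairs in each group, with coding genes (grey) at 6.57 to 7.62 and lncRNAs (red) at 0.159 to 0.228.

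The most abundant feature by far was n270541, 406 bases long and at chr5:143664920-143665325 (mm9, + strand). It is one of the 12 facing pairs and ends 95 bases past the 3' end of Actb, the gene of beta-actin. It averaged 195 ± 37.9 CPM in TAC hearts (SD, n = 4), 414 ± 94.5 at E13.5 (n = 7), 141 ± 34.5 at 6 weeks (n = 6), 206 ± 23.1 at 16 weeks (n = 6) and 162 ± 16.7 in sham hearts (n = 4). The E13.5 libraries lay above all others. Actb itself was higher at E13.5 than in sham hearts by 0.89 ± 0.096 on the log2 scale (SE) and n270541 by 1.26 ± 0.19 (edgeR, adjusted p = 7.27e-08 and 0.00012). Whether its reads come from longer Actb transcripts was not tested.

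Among head-to-head lncRNAs, the highest levels per kb belonged to n5654 of Gtf3c6 (a subunit of the RNA polymerase III factor TFIIIC), n294221 of Safb2 (a nuclear matrix protein), n297628 of Ccdc51, n294844 of Tbc1d22a (a protein with a Rab-GAP domain), n291206 of Crybg3, n266663 of Rhof (a small GTPase) and n414643 of Glrx5 (a mitochondrial glutaredoxin). As the mean of the 5 group means they stood between 10.8 CPM per kb for n414643 and 21.6 for n5654. n291206 had 14.0 to 18.1 CPM at E13.5 (median 17.7) against 32.4, 39.2, 40.7 and 37.7 CPM in sham hearts, and Crybg3 had 42.8 to 60.7 against 118, 109, 100 and 124 CPM. Neither pair of groups overlapped, and lncRNA and gene fell by nearly the same amount, 1.24 ± 0.089 and 1.15 ± 0.081 on the log2 scale (edgeR, adjusted p = 1.08e-10 and 8.31e-11). n266663 had 16.7 to 21.2 CPM at E13.5 against 20.9, 25.4, 19.6 and 20.2 CPM in sham hearts, overlapping groups with a decrease of 0.31 ± 0.099 (edgeR, adjusted p = 0.00771), while Rhof did not pass the test (adjusted p = 0.484). This decrease of n266663 no longer passed with upper-quartile scaling, with no low-count filter or in a fit over all 27 libraries.

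The comparison of E13.5 hearts with sham hearts asks which divergent lncRNAs differ between the forming and the mature heart. Of the 213 that passed the low-count filter, 105 were higher and 47 lower at E13.5 (49.3% and 22.1%), and 61 did not pass the test. The same call was made for 40.7% and 35.6% of all 18677 features tested, and for 41.4% and 23.5% of all lncRNA features. The groups did not overlap for 114 of the 213, or 53.5%, against 63.9% of all features. The lncRNAs that were higher belonged to 98 coding genes and ranged from 0.44 to 8.83 on the log2 scale with a median of 1.68, and those that were lower belonged to 45 and ranged from -8.50 to -0.31. The other 1762 lncRNAs did not pass the filter and were not tested. A lncRNA present only in embryos passes it through the embryonic libraries alone, so the counts do not describe all divergent lncRNAs. Without the 2 sham libraries at odds with the labelled sex, 97 were higher and 45 lower.

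The largest increases belonged to lncRNAs nearly absent from adult hearts. n289205, on chromosome 18 and 327 bases from Fbn2 (fibrillin-2, a protein of extracellular microfibrils in developing tissue), had 3.43 to 6.05 CPM at E13.5 (median 4.87) and no count in any sham or unoperated library. It was thus at least 55.4-fold higher than in sham hearts, taking 3 counts over the sham group as the limit. Fbn2 had 631 to 795 CPM at E13.5 against 1.44, 1.38, 0.925 and 1.63 CPM in sham hearts and was higher by 8.95 ± 0.13 on the log2 scale (edgeR, adjusted p = 2.42e-21).

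n343756, 204 bases from Tgif2 (a homeodomain repressor in TGF-beta signalling), had 27.2 to 34.6 CPM at E13.5 (median 30.5) against 0.553, 0.689, 0.308 and 0.408 CPM in sham hearts. Every embryonic library lay far above every adult one. It was higher by 5.81 ± 0.17 on the log2 scale (edgeR, adjusted p = 4e-17) and Tgif2 by 3.30 ± 0.34, at 1.78 to 2.10 CPM against 0.332, 0.115, 0.154 and 0.102 CPM. Only 18.7% of the exonic bases of Tgif2 lie outside other features, so its level is not set against that of the lncRNA. The lncRNA was also higher than in unoperated adults, by 6.28 ± 0.19 (edgeR, adjusted p = 2.21e-23), where it had medians of 0.406 CPM at 6 weeks and 0.432 CPM at 16 weeks.

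A pair of imprinted loci also had lncRNAs that were far higher in embryos. n272757, 3960 bases from the deposited start of Gnas (the stimulatory G protein alpha subunit), had 2.20 to 4.32 CPM at E13.5 (median 3.45) and 2 counts in all sham libraries together. The ratio was 58.2 with a 95% interval of 16.0 to 482 from counting error only, and Gnas was higher by 2.13 ± 0.38 on the log2 scale (edgeR, adjusted p = 0.000236). Gnas had only 85 counts over the sham libraries, and 68.95% of its exonic bases lie outside other features. n297509, 401 bases from Rtl1 (a retrotransposon-derived gene needed in the placenta), had 3.34 to 5.46 CPM at E13.5 against 0.111, 0.230, 0.154 and 0 CPM in sham hearts. It was higher by 5.06 ± 0.37 on the log2 scale and Rtl1 by 3.67 ± 0.36 (edgeR, adjusted p = 1.64e-10 and 1.46e-08). Embryonic and sham libraries did not overlap at either locus.

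n286104 was higher than in sham hearts while its coding gene did not pass that test. It lies 92 bases from Mettl4 (a methyltransferase) and had 0.379 to 0.900 CPM at E13.5 and no count in sham hearts or unoperated adults, at least 7.94-fold higher than in sham hearts. n286104 also lies 2928 bases past the 3' end of 2610044O15Rik, and whether its reads come from longer transcripts of that gene was not tested. Mettl4 had 2.96 to 4.62 CPM at E13.5 against 2.54, 3.44, 3.08 and 2.76 CPM in sham hearts, overlapping groups that did not pass the test (log2 difference 0.25 ± 0.18, edgeR, adjusted p = 0.211). Against unoperated adults Mettl4 was higher by 0.57 ± 0.24 (edgeR, adjusted p = 0.0284), with overlapping groups. n294798 of Grtp1 (a GTPase-activating protein), 109 bases away, had 1.20 to 4.21 CPM at E13.5 and 1 count in sham hearts, a ratio of 63.6 with a 95% counting interval of 11.3 to 2530, while Grtp1 was higher by 1.75 ± 0.16 (edgeR, adjusted p = 6.72e-09).

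In the other direction, n293833 had 2 counts over all 7 embryonic libraries and 7.74, 16.1, 9.71 and 9.39 CPM in sham hearts. Its ratio, sham over E13.5, was 516 with a 95% counting interval of 142 to 4280. Foxo6, a forkhead transcription factor 4000 bases away, had 2.61 to 4.47 CPM at E13.5 against 5.42, 8.84, 5.55 and 5.51 CPM, lower by 0.95 ± 0.18 on the log2 scale (edgeR, adjusted p = 8.4e-05). The unoperated adults had only 0.792 to 1.98 CPM of n293833 at 6 weeks and 0 to 1.69 CPM at 16 weeks, below all sham libraries. Between sham and unoperated adults the operation, age, depth and encoding cannot be told apart, and that difference was not tested.

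n343216 of Gcdh (glutaryl-CoA dehydrogenase, an enzyme of mitochondrial lysine breakdown), 106 bases away, had 6 counts at E13.5 in all and 3.32, 3.33, 3.08 and 3.57 CPM in sham hearts. Gcdh had 14.4 to 18.2 CPM at E13.5 against 84.5, 83.4, 85.6 and 81.1 CPM. Both fell, by 5.61 ± 0.34 and 2.45 ± 0.069 on the log2 scale (edgeR, adjusted p = 7.39e-12 and 2.64e-17). n275096 of Pick1 (a PDZ-domain scaffold protein) fell by 4.71 ± 0.32 and Pick1 by 0.95 ± 0.15, and n414527 of Syt11 (a synaptotagmin) fell by 3.33 ± 0.15 and Syt11 by 0.47 ± 0.11. Only 39.7% of the exonic bases of n414527 lie outside other features. Unoperated adults had 0 to 0.792 CPM of n275096 at 6 weeks and 0 to 0.943 CPM at 16 weeks, below all sham libraries.

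n267847 and n276918 were lower at E13.5 than in sham hearts while their genes did not pass the test. n267847 of Tmem189 had 4 counts at E13.5 against 1.88, 1.61, 1.39 and 2.04 CPM in sham hearts, and Tmem189 had 39.0 ± 3.34 CPM (n = 7) against 40.4 ± 3.43 CPM (n = 4). n276918 of Taf8 (a subunit of the general factor TFIID) had 0.390 to 1.46 CPM at E13.5 against 6.75, 2.87, 6.47 and 7.04 CPM, and Taf8 had 30.0 ± 1.38 against 27.5 ± 2.91 CPM. Unoperated adults had 0.461 to 2.91 CPM of n276918 at 6 weeks and 0.423 to 2.41 CPM at 16 weeks, which overlapped the embryonic range, and 0 to 1.85 and 0 to 0.994 CPM of n267847. n284910 of Eya3 (a phosphatase and transcriptional coactivator) went the other way, higher by 2.19 ± 0.38 on the log2 scale with Eya3 at 74.1 ± 3.05 CPM at E13.5 against 73.6 ± 6.80 CPM in sham hearts.

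**Figure D2:**
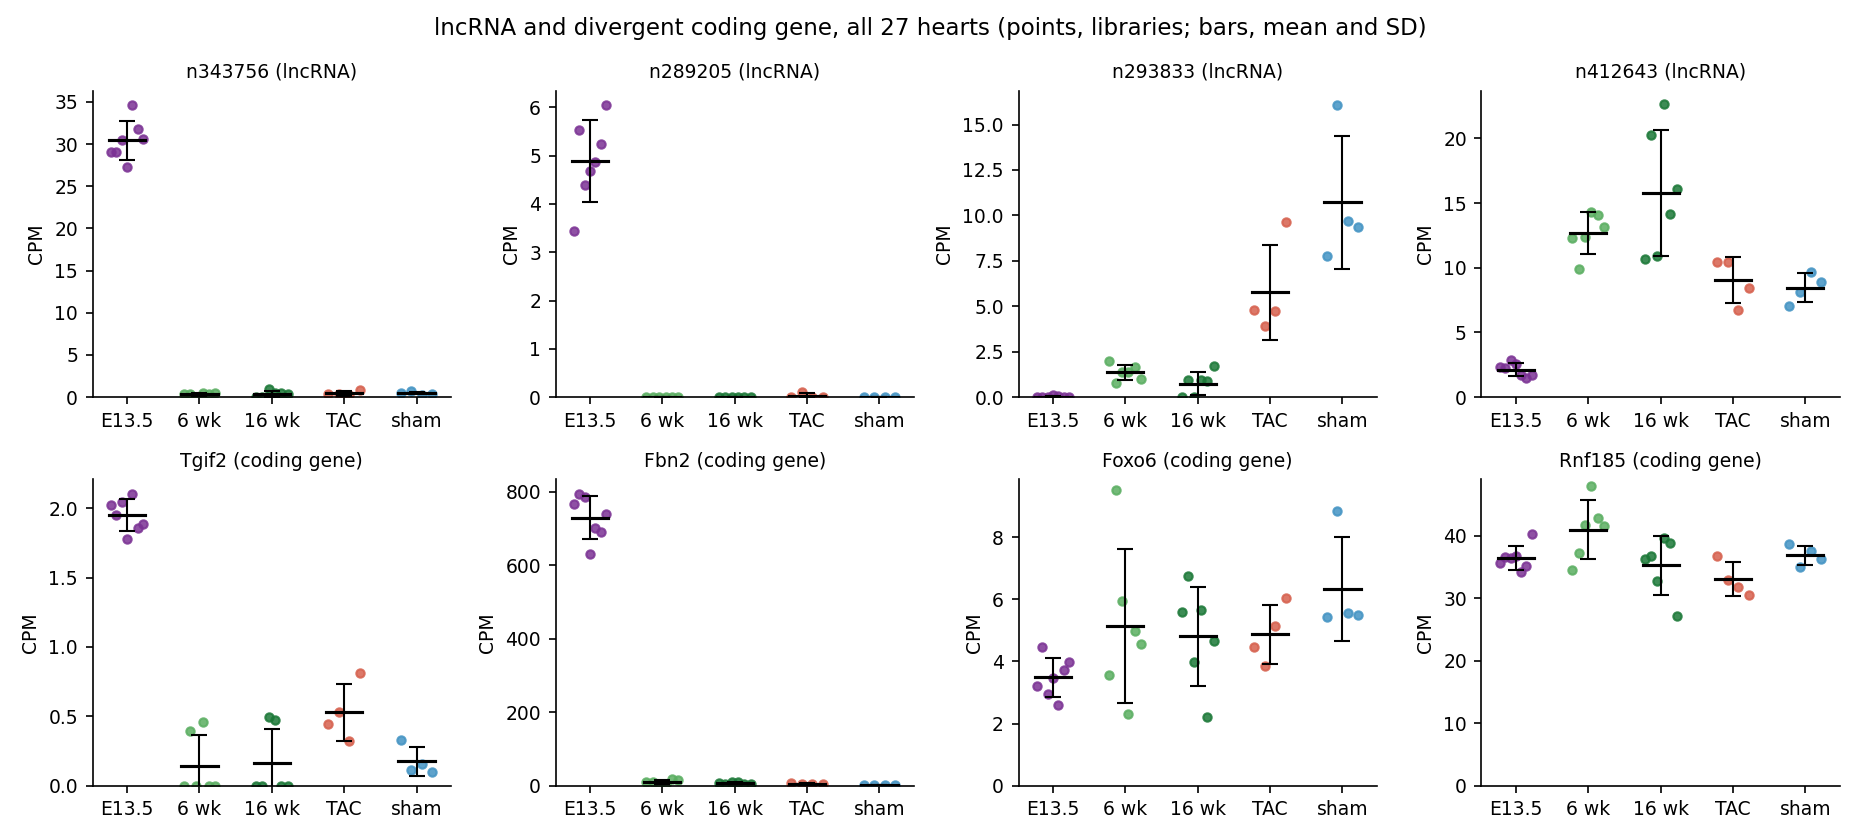
CPM of 4 divergent lncRNAs (top row) and of their coding genes (bottom row) in the 27 libraries by group; points are libraries, bars the mean and SD. n343756 and n289205 lie near 0 in every adult group, n293833 is near 0 at E13.5 and highest in sham hearts, and n412643 is lowest at E13.5 while Rnf185 has a mean of 33.0 to 40.9 CPM in all groups.

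Set against unoperated adults, E13.5 hearts gave fewer tested lncRNAs, at the lower depth of the adult libraries. Of 62 that passed the filter, 31 were higher and 22 lower at E13.5, against 44.1% higher and 39.7% lower over all features and 43.8% and 33.8% over all lncRNA features. Without the 4 libraries at odds with the labelled sex, 34 were higher and 23 lower. The groups did not overlap for 24 of the 62, against 54.5% of all features. Among those without overlap, the lncRNAs of Fbn2, Gnas, Tgif2 and Rtl1 had the largest increases, and the next was n420700 of Ttc39a, with 8.22 to 12.3 CPM at E13.5, 0 to 2.53 at 6 weeks and 0.423 to 2.79 at 16 weeks, and Ttc39a with 8.94 to 13.2 CPM at E13.5, 1.25 to 2.74 at 6 weeks and 1.86 to 5.19 at 16 weeks. lncRNA and gene were higher by 3.20 ± 0.24 and 2.33 ± 0.16 on the log2 scale (edgeR, adjusted p = 3.91e-13 and 5.06e-14).

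The largest decrease at E13.5 was that of n287593, another of the 12 facing pairs, which ends 77 bases past AA474408. It had 0.504 to 1.53 CPM at E13.5 against 3.57 to 10.6 CPM at 6 weeks and 7.61 to 13.7 CPM at 16 weeks, lower by 3.21 ± 0.22 on the log2 scale (edgeR, adjusted p = 1.74e-14). Sham hearts had 0.774, 1.26, 1.08 and 0.612 CPM, within the embryonic range, and the comparison with them did not pass the test (adjusted p = 0.82). The difference thus lay between the unoperated adults and every other group, as did the encoding and depth. n412643, 108 bases from Rnf185 (a ubiquitin ligase of the endoplasmic reticulum), had 1.46 to 2.88 CPM at E13.5, 9.90 to 14.3 at 6 weeks, 10.7 to 22.6 at 16 weeks and 7.08, 8.15, 9.71 and 8.88 CPM in sham hearts. It fell against both adult references, by 2.73 ± 0.17 and 2.08 ± 0.18 (edgeR, adjusted p = 2.46e-15 and 1.72e-09). Rnf185 did not pass the test in either, at 36.4 ± 1.93 CPM at E13.5 (n = 7) against 36.9 ± 1.53 CPM in sham hearts (n = 4).

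n416897 of Fam36a (an assembly factor of cytochrome oxidase), n269828 of Actc1 (cardiac alpha-actin) and n270199 of Rnf40 (a histone H2B ubiquitin ligase) completed the 5 largest decreases without overlap against unoperated adults. They fell by 2.59 ± 0.20, fell by 2.45 ± 0.24 and fell by 1.59 ± 0.22 on the log2 scale, in that order, and their genes fell by 1.82 ± 0.19, 0.99 ± 0.12 and 0.16 ± 0.068 (edgeR, adjusted p = 7.43e-10, 1.28e-07 and 0.0319). n416897 lies 4525 bases past the 3' end of Hnrnpu, and n270199 lies 3758 bases past that of Phkg2. Whether their reads come from longer transcripts of Hnrnpu and Phkg2 was not tested.

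Pairs tended to move the same way between stages. In E13.5 against sham hearts, lncRNA and coding gene were both tested in 199 pairs of 183 genes. Both were higher in 63 pairs, both lower in 29, and 18 went in opposite directions, so that 83.6% of the 110 pairs with both called had the same direction. The lncRNA alone was higher in 23 pairs and lower in 10, and the gene alone was higher in 19 and lower in 26. Over the 199 pairs, the log2 fold changes of lncRNA and gene had Pearson's r of 0.61 and Spearman's rho of 0.59. With the next coding gene along the chromosome in place of the divergent one, r was 0.08 and rho -0.04 over 175 pairs, and the signs were the same in 46.9% against 68.8%. The next gene was also much farther away, with 5' ends a median of 31070 bases apart against 401 for the divergent gene. Over the 164 lncRNAs with both genes tested, r was 0.61 with the divergent gene and 0.08 with the next one. The points share the same libraries and their depth, and some share a gene, so these correlations are descriptions. With 1 lncRNA per gene, r was 0.58 over 183 pairs. Moving the same way did not mean moving by the same amount. Among named pairs, the ratio of lncRNA to gene passed in 23 of 31 against sham hearts and in 12 of 24 against unoperated adults (two-sided exact permutation test, adjusted p under 0.05). These pairs were named partly for large or opposite changes, so the counts do not describe all pairs.

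Pearson's r was 0.65 over the 164 pairs whose lncRNA does not lie within 5 kb past a coding 3' end. It was 0.44, 0.81, 0.56 and 0.51 over pairs up to 200, over 200 to 1000, over 1000 to 2000 and over 2000 bases apart (n = 66, 61, 25 and 47). Spearman's rho over the same distances was 0.60, 0.73, 0.47 and 0.47, so by rank the closest pairs were not the least alike. Other lncRNAs overlapping no coding gene, set against the nearest coding gene, had r of 0.27 where they had several exons (261 pairs) and 0.44 where they had 1 (589 pairs). Their nearest coding 5' ends lay a median of 26790 and 25870 bases away. The signs were the same in 60.15% and 65.7% of these pairs, against 68.8% of divergent pairs, so sign agreement was not particular to divergent pairs. Against unoperated adults, 25 of 56 divergent pairs were both higher at E13.5, 13 both lower and 1 opposite, with r of 0.84, and r with the next coding gene was 0.34 over 47 pairs.

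**Figure D3:**
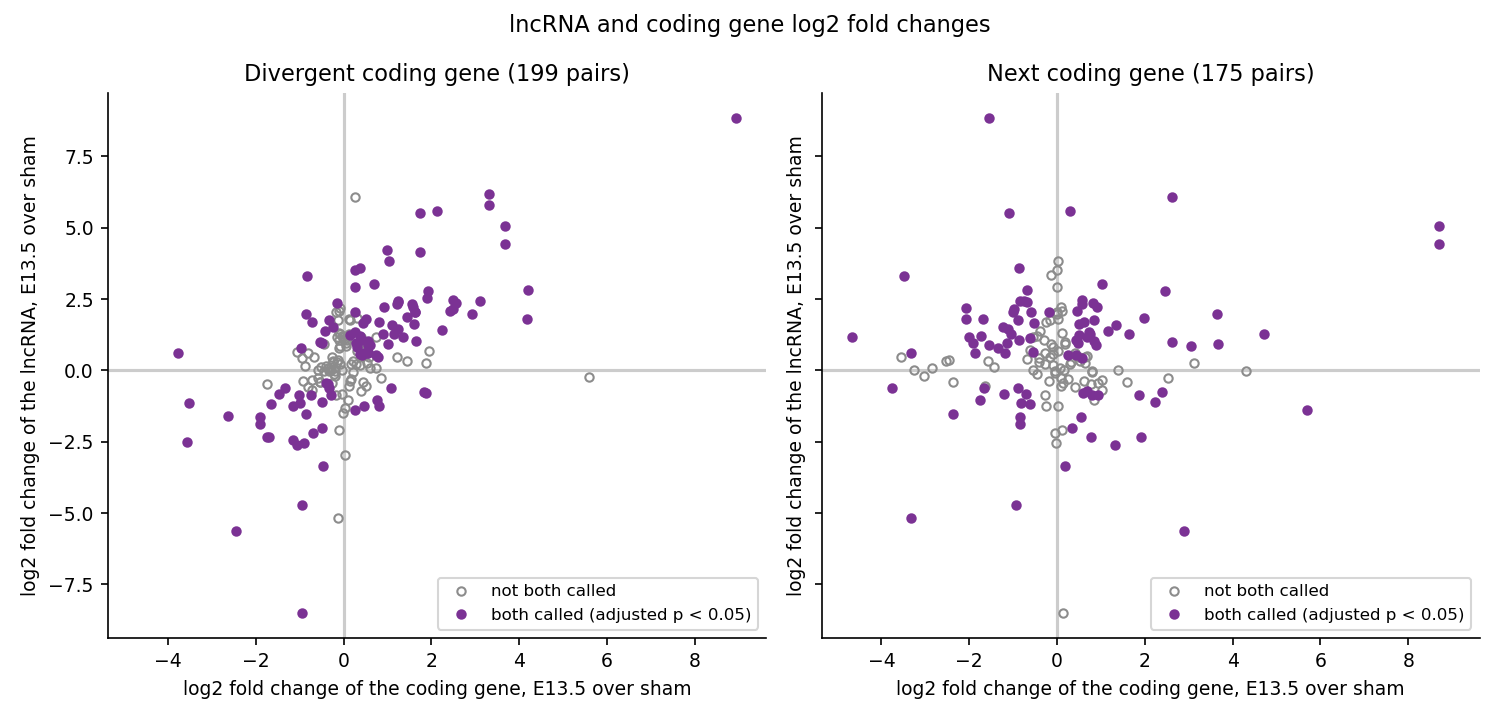
log2 fold change of the lncRNA (vertical) against that of a coding gene (horizontal), E13.5 over sham, for the divergent coding gene (left, 199 pairs) and the next coding gene along the chromosome (right, 175 pairs). Filled points have both features past adjusted p of 0.05; they gather along the diagonal on the left (r = 0.61) and spread in all directions on the right (r = 0.08).

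Among the 18 opposite pairs, the 4 in which both features moved most were those of Ercc1, 5430407P10Rik, Cpsf2 and 1500010J02Rik. n269748 of Ercc1 (a subunit of a DNA repair endonuclease) was higher at E13.5 by 1.98 ± 0.33 on the log2 scale, while Ercc1 fell by 0.85 ± 0.088 (edgeR, adjusted p = 2.02e-05 and 3e-08). n344252 lies 28 bases from Cpsf2, a subunit of the cleavage and polyadenylation complex, and had 0.199 to 0.910 CPM at E13.5 against 1.99, 1.03, 1.54 and 1.43 CPM in sham hearts, and Cpsf2 had 47.8 to 60.3 against 29.0, 31.7, 24.5 and 34.1 CPM. Neither pair of groups overlapped. n278299 was higher by 3.29 ± 0.41 and 5430407P10Rik lower by 0.84 ± 0.17, and n268290 was lower by 0.79 ± 0.20 and 1500010J02Rik higher by 1.88 ± 0.33. The direction of 5430407P10Rik turned with the adult group, since against unoperated adults it was higher at E13.5 by 0.53 ± 0.21 (edgeR, adjusted p = 0.0212). The gene 1500010J02Rik has only 8.7% of its exonic bases to itself. Against unoperated adults, the 1 opposite pair was n286555, higher by 1.24 ± 0.41, and Msi2 (an RNA-binding protein of the Musashi family), lower by 0.72 ± 0.056. The groups overlapped for n286555, and limma-voom did not call it.

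The comparison of TAC with sham hearts asks what pressure overload changes. Of 113 divergent lncRNAs that passed the filter, 9 were higher and 20 lower in TAC hearts (7.96% and 17.7%), and 84 did not pass the test. Over all features 19.6% were higher and 18.4% lower, over coding genes 23.5% and 14.2%, and over all lncRNA features 3.7% and 35.4%. The groups did not overlap for 26 of the 113, or 23.0%, against 35.7% of all features. The calls ranged from 0.77 to 1.46 on the log2 scale among those higher and from -2.16 to -0.37 among those lower. Without the libraries at odds with their sex label, 9 were higher and 16 lower. The coding genes with a divergent lncRNA were higher in 215 and lower in 140 of 978 tested, or 22% and 14.3%. These shares stood close to those of all coding genes. Without TAC replicate 1, the lncRNAs called higher numbered 4.

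n270329, 2304 bases from Gcat (glycine C-acetyltransferase, a mitochondrial enzyme of threonine breakdown), rose most. It had 7.35, 4.90, 6.11 and 5.80 CPM in TAC hearts against 2.76, 1.95, 2.16 and 1.63 CPM in sham hearts, and Gcat had 10.7, 15.9, 10.8 and 11.4 against 16.6, 13.6, 17.4 and 15.6 CPM. No overlap was seen for the lncRNA, and for Gcat 1 TAC library lay within the sham range. The lncRNA rose by 1.46 ± 0.22 on the log2 scale while Gcat fell by 0.41 ± 0.14 (edgeR, adjusted p = 9.91e-05 and 0.0326). Leaving out any 1 library kept the lncRNA call, with changes of 1.34 to 1.63.

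n288450, a lncRNA of 3654 exonic bases at chr8:59793967-59797621 (mm9, - strand), starts 2159 bases from Hand2, a basic helix-loop-helix factor needed to form the right ventricle. It had 2.01, 3.09, 3.97 and 2.78 CPM in TAC hearts against 5.97, 4.94, 4.78 and 5.51 CPM in sham hearts, whereas Hand2 had 118, 129, 126 and 115 against 101, 75, 78.5 and 94.9 CPM. Every TAC library was below every sham library for the lncRNA and above for the gene. The lncRNA fell by 0.88 ± 0.21 and Hand2 rose by 0.44 ± 0.089 on the log2 scale (edgeR, adjusted p = 0.00396 and 0.00112), and no single library left out ended the lncRNA call. Between stages the pair moved together, and n288450 was higher at E13.5 than in sham hearts by 0.47 ± 0.16 and Hand2 by 0.78 ± 0.081 (edgeR, adjusted p = 0.0133 and 2.91e-08). For the lncRNA these groups overlapped, and the call between stages did not hold without the 2 sham libraries at odds with the labelled sex.

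The other opposite pairs in TAC hearts were those of Prkce and Tmem189. n288413 of Prkce (protein kinase C epsilon) had 3.45, 2.03, 2.47 and 2.78 CPM in TAC hearts against 1.55, 1.72, 1.23 and 0.918 CPM in sham hearts, and Prkce fell by 0.42 ± 0.14. The lncRNA call (0.93 ± 0.28, edgeR, adjusted p = 0.0149) was lost without TAC replicate 1 and without sham replicate 4, and its lowest change was 0.77. n267847 of Tmem189 fell by 0.89 ± 0.29, a call lost without any 1 of 4 libraries (TAC replicates 2 and 3, sham replicates 1 and 4) and also under DESeq2, and Tmem189 rose by 0.25 ± 0.082. n267847 also starts 820 bases past the 3' end of Cebpb. The ratio of lncRNA to gene was tested in 24 pairs in TAC against sham hearts, the opposite pairs included. None passed (two-sided exact permutation test over 4 and 4 libraries, smallest p = 0.0286, and 0.0528 adjusted over the 24). That p is the lowest this test can give with 4 and 4 libraries, and 13 pairs shared it. With so few libraries the test could hardly pass after adjustment, so no conclusion about the ratios is drawn from it.

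n286022, 3174 bases from Adamts7 (a secreted metalloproteinase), fell most. It had 0.891, 0.107, 0.751 and 0.812 CPM in TAC hearts against 3.1, 2.30, 3.39 and 2.55 CPM in sham hearts. Adamts7 had 39.6, 47.1, 50.5 and 45.9 against 70.4, 77.7, 76.8 and 67.5 CPM. The groups did not overlap for either, and the lncRNA fell by 2.16 ± 0.36 and the gene by 0.72 ± 0.085 on the log2 scale (edgeR, adjusted p = 0.000285 and 1.4e-05).

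n274783, 316 bases from Wee1 (a kinase that holds back entry into mitosis), had 5.35, 4.69, 6.65 and 4.41 CPM in TAC hearts against 15.8, 10.7, 15.3 and 16.8 CPM in sham hearts. The groups lay far apart, and it fell by 1.51 ± 0.17 (edgeR, adjusted p = 1.04e-05, the smallest among divergent lncRNAs in this comparison). Wee1 had 4.12, 2.35, 3.86 and 2.90 against 7.52, 3.67, 4.01 and 4.49 CPM, overlapping groups, and did not pass the test (log2 difference -0.62 ± 0.25, adjusted p = 0.0606). Only 20.2% of the exonic bases of Wee1 lie outside other features. At 6 weeks n274783 ranged from 7.47 to 27 CPM and at E13.5 from 2.68 to 4.21 CPM, so it was lower at E13.5 than in sham hearts by 2.18 ± 0.15 (edgeR, adjusted p = 6.01e-11).

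Of the other lncRNAs with the largest decreases without overlap, n275096 of Pick1 had 1.23, 2.45, 1.93 and 1.28 CPM in TAC hearts against 3.98, 4.48, 3.70 and 4.29 CPM in sham hearts, and Pick1 had 18.1 ± 2.53 against 18.1 ± 2.06 CPM (n = 4 each). n5654 of Gtf3c6 had 1.78, 2.56, 1.29 and 0.696 against 3.54, 2.76, 3.24 and 4.69 CPM. n287187 starts 3833 bases from Gata6, a zinc finger factor of heart and gut development, and had 0.891, 0.746, 0.965 and 0.348 against 1.66, 1.49, 2.0 and 1.63 CPM. None of the 3 had overlapping groups, and they fell by 1.29 ± 0.24, 1.21 ± 0.31 and 1.20 ± 0.33 (edgeR, adjusted p = 0.000727, 0.00623 and 0.00879). None of their genes passed the test, and Gata6 stood at 88.3 ± 6.28 CPM in TAC hearts and 83.5 ± 7.38 CPM in sham hearts (n = 4 each). The decrease of n5654 no longer passed in a fit over all 27 libraries, and that of n287187 no longer passed without the libraries at odds with their sex label. A further lncRNA of Gata6, n287588, which starts 1023 bases from it, had 1.92 ± 0.52 against 2.11 ± 0.59 CPM and did not pass (adjusted p = 0.631).

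The lncRNAs that rose together with their gene were n423639 of Cyr61 and n288180 of Klhl34. Cyr61 encodes a secreted matricellular protein, and had 211, 415, 165 and 223 CPM in TAC hearts against 132, 76.8, 130 and 119 CPM in sham hearts. n423639 had 1.23, 2.98, 1.18 and 1.16 against 0.332, 1.03, 0.308 and 0.714 CPM, with TAC replicate 2 the highest for both. They rose by 1.36 ± 0.45 and 1.11 ± 0.34 (edgeR, adjusted p = 0.0243 and 0.0441), and without TAC replicate 2 or without sham replicate 1 or 3 the lncRNA no longer passed. Only 22.2% of the exonic bases of n423639, 23.3% of those of n288413 and 39.0% of those of n344252 lie outside other features. n344252 of Cpsf2 had 3.01, 3.73, 2.79 and 2.44 against 1.99, 1.03, 1.54 and 1.43 CPM, a rise of 0.95 ± 0.26 (edgeR, adjusted p = 0.00943) kept without any 1 library, and Cpsf2 stood at 33.1 ± 1.17 against 29.8 ± 4.11 CPM. n294844, 80 bases from Tbc1d22a, had 11.7, 16.7, 12.8 and 11.9 against 8.29, 6.43, 8.02 and 7.65 CPM and rose by 0.77 ± 0.15 (edgeR, adjusted p = 0.000985).

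**Figure D4:**
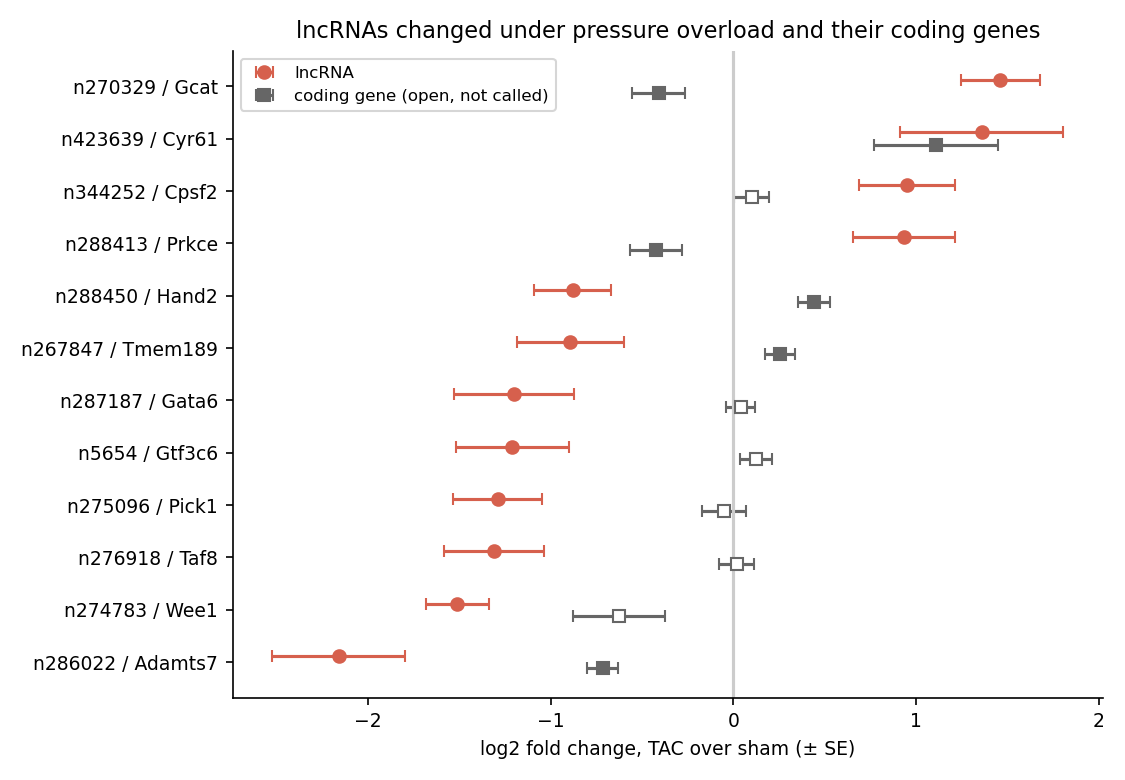
log2 fold change, TAC over sham, with its SE, for 12 of the divergent lncRNAs (red circles) and their coding genes (grey squares, open where the gene did not pass the test). The lncRNAs lie between -2.16 and 1.46, most genes lie nearer 0, and for Gcat, Prkce, Hand2 and Tmem189 lncRNA and gene both passed the test and lie on opposite sides of 0.

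Further called lncRNAs in TAC hearts were those of Klhl34, E030010A14Rik and Lsm2, which were higher, and those of Med26, Tppp, Hexim2, Prdm16, Bcl6, Ndufa6, Rhof, Crybg3, Taf8, Syt11, Foxo6, Gcdh and 1500010J02Rik, which were lower. That of Klhl34 lies 3323 bases past the 3' end of Cnksr2, and that of Lsm2 lies 152 bases past the 3' end of Hspa1l. n273307 of Prdm16, a zinc finger factor, fell by 0.90 ± 0.15 at 7.68 CPM in TAC hearts against 14.0 CPM in sham hearts (group means, n = 4 each), and was chosen for mention after its values were seen. Over the 105 pairs with both features tested, 6 moved together, 4 moved in opposite directions, and only the lncRNA was called in 5 that were higher and 13 that were lower. The 6 became 3 without TAC replicate 1 and 10 without sham replicate 2, and 3 without sham replicate 3. The correlation of the log2 fold changes was 0.28, against 0.16 with the next coding gene over 87 pairs. The signs were the same in 57.1% of pairs with the divergent gene and in 57.5% with the next one, and other lncRNAs overlapping no coding gene had r of 0.23 with the nearest coding gene, both with several exons and with 1.

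**Figure D5:**
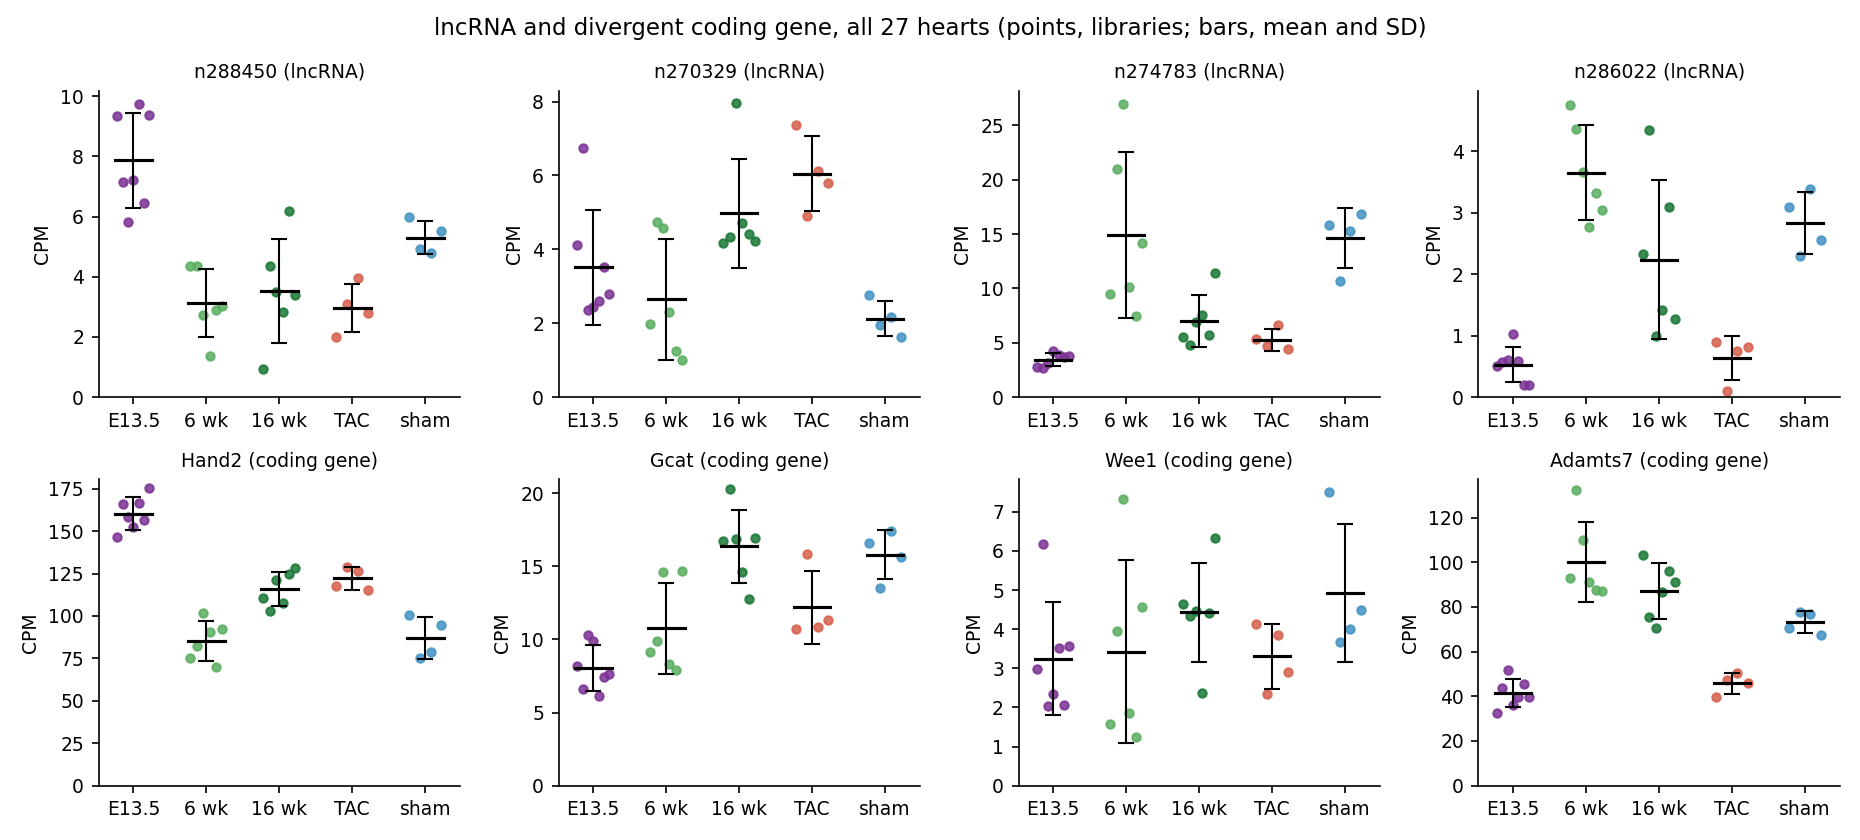
CPM of n288450, n270329, n274783 and n286022 (top row) and of Hand2, Gcat, Wee1 and Adamts7 (bottom row) in the 27 libraries by group; points are libraries, bars the mean and SD. In TAC against sham hearts n288450 is lower and Hand2 higher, n270329 is higher and Gcat lower, and n274783 and n286022 are lower.

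At 16 weeks against 6 weeks, no divergent lncRNA passed the test among 25 tested (edgeR), while 1.32% of all features were higher and 1.19% lower. At an unadjusted p under 0.05 there were 4, and the smallest adjusted p was 0.061. DESeq2 called 1 higher and 1 lower, and limma-voom 1 higher. Without the 4 libraries at odds with the labelled sex, edgeR called 0. The 4 were the 2 facing lncRNAs past Actb and AA474408, higher by 0.53 ± 0.14 and 0.76 ± 0.24, and those of Wee1 and Ccdc51, lower by 1.08 ± 0.31 and 1.0 ± 0.41. The ratio of n270541 to Actb was higher at 16 weeks by 0.58 on the log2 scale (two-sided exact permutation test over 6 and 6 libraries, p = 0.00217, and 0.0152 adjusted over 7 pairs), with Actb itself at 585 ± 49.9 CPM at 16 weeks and 587 ± 67.7 CPM at 6 weeks. With 2092270 to 2682955 counts per library, most divergent lncRNAs could not be tested for age.

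A list of 80 cardiac regulators and chamber genes held 16 with a divergent lncRNA, and these had 34 divergent lncRNAs, of which 21 had 10 or more counts and 12 had none. The list was drawn up with earlier results of these data known. n268635, 2872 bases from Tbx5 (the T-box factor altered in Holt-Oram syndrome), had 4.61 to 6.83 CPM at E13.5 against 3.32, 4.36, 2.16 and 3.98 CPM in sham hearts, without overlap, and Tbx5 had 104 to 143 against 80.1, 79.5, 80.9 and 75.1 CPM. Both were higher, by 0.63 ± 0.18 and 0.56 ± 0.077 (edgeR, adjusted p = 0.00404 and 1.71e-06). In TAC hearts Tbx5 fell by 0.93 ± 0.076, at 43.2, 40.2, 47.5 and 40.0 CPM, whereas n268635 had 1.67, 3.52, 2.25 and 2.78 CPM, overlapped the sham libraries and did not pass (log2 difference -0.50 ± 0.26, adjusted p = 0.152).

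n415142, 256 bases from Irx2 (an Iroquois homeodomain factor), had 5.99 to 9.03 CPM at E13.5, 0 to 5.03 at 6 weeks, 0.965 to 3.72 at 16 weeks and 0.885, 0.344, 0.308 and 0.408 CPM in sham hearts. Every embryonic library was above every adult one, and the lncRNA was higher than in sham hearts by 3.85 ± 0.25 and Irx2 by 1.03 ± 0.21 (edgeR, adjusted p = 2.55e-11 and 0.000336). n287588 was higher at E13.5 than in sham hearts by 1.05 ± 0.20 and Gata6 by 0.41 ± 0.081. n269828, which has 48.7% of its exonic bases to itself, fell at E13.5 with Actc1, at 0.488 to 1.20 CPM against 4.64, 4.82, 3.24 and 3.47 CPM in sham hearts.

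The lncRNAs of the other regulators were rare. n264775 of Meis2 (a TALE homeodomain factor) had 1.18 to 2.06 CPM at E13.5 against 0.332, 0.230, 0.154 and 0.102 CPM in sham hearts and was higher by 2.76 ± 0.38, with Meis2 higher by 1.92 ± 0.071 (edgeR, adjusted p = 1.9e-06 and 2.08e-15). n265678 of Sox4 (an HMG-box factor of the outflow tract) had 0.833 to 1.80 CPM at E13.5 against 0.442, 1.61, 0.925 and 0.408 CPM and did not pass (adjusted p = 0.0824), while Sox4 was higher by 1.95 ± 0.25. n270439 of Isl1, the LIM-homeodomain factor of second heart field progenitors, had 25 counts at E13.5 and none in any of the adult libraries, too few to test, and Isl1 had 1.95 to 7.5 CPM at E13.5 and 1 count in sham hearts. n293122 of Wt1, an epicardial factor, had 23 counts at E13.5 and 1 in sham hearts. n282319 of Klf15 (a regulator of adult heart metabolism) had 10 counts in the 7 libraries at E13.5 and 43 in the 4 sham libraries, and Klf15 itself fell by 4.27 ± 0.12 at E13.5. The lncRNAs of Foxf1a, Nr2f1, Irx3 and Tbx20 had 64, 45, 36 and 31 counts over all 27 libraries and were not tested.

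By class of coding gene, assigned from gene symbols, 107 transcription factors had 194 divergent lncRNAs. Of these 17 were tested in E13.5 against sham hearts, with 10 higher and 4 lower, and 10 in TAC against sham hearts, with none higher and 4 lower. In TAC hearts 19.6% of all features were higher and 18.4% lower, and 3.7% and 35.4% of all lncRNA features, so these few lncRNAs stood near the lncRNA share. For 24 cell division genes, 6 lncRNAs were tested at E13.5 and 5 were higher. For 15 mitochondrial genes 3 lncRNAs were tested, with 1 higher and 2 lower, and of the 15 genes 3 were higher and 12 lower at E13.5. The tested lncRNAs are few beside the 40.7% and 35.6% of all features called in the comparison of E13.5 with sham hearts, and no class was set apart by a test.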

How the data were processed

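Read counts per gene were deposited by the authors for 27 libraries. Per the submitters' processing notes the tools were Bowtie, TopHat 1.3.0, HTSeq, DESeq and edgeR with build mm9. The counts are whole reads on features of a combined coding and NONCODE annotation, and none of the 462 divergent lncRNAs without an exonic base of their own had a count. Divergent lncRNAs were found by their position in the deposited annotation, but this class, the lncRNAs named and the gene lists were chosen for description with earlier results of these data known. Levels are CPM, with library sizes adjusted by TMM over the 27 libraries. Each comparison was fitted on its own groups with edgeR 4.0.16 (R 4.3.3) by the quasi-likelihood test, after filterByExpr with a minimum count of 10 and a total of 15, and adjusted by Benjamini-Hochberg over all features tested (threshold 0.05). The scripts were tested on simulated counts. Alternatives used DESeq2 1.42.0, limma 3.58.1, other filters, windows of 1 and 2 kb and each library left out. Pair ratios are log2 of CPM plus 0.5, tested by exact permutation and adjusted over the pairs. Counting intervals are exact at 95% and cover counting error only, and folds against a group at 0 use 3 counts over the group. Named lncRNAs were those with the largest changes without overlap and at least 0.5 CPM, the 8 most abundant per kb, opposite pairs, pairs with the gene not called, and cardiac regulators with 10 or more counts. Classes of coding genes were assigned by matching gene symbols. One named pair is not reported here.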

Additional observations from a re-analysis of the deposited data

Results flagged for a closer look

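In 14 of 201 groups of 4 to 7 libraries, 1 library stood apart from the rest by Dixon's test at the 95% level, where chance alone gives about 1 in 20. In TAC hearts, replicate 2 had 2.984 CPM of n423639 (Cyr61) against 1.16 to 1.23 in the others and 8.526 CPM of n270199 (Rnf40) against 5.58 to 5.80. TAC replicate 4 had 9.623 CPM of n293833 (Foxo6) against 3.94 to 4.79 and 7.652 CPM of n287594 (Jdp2) against 5.33 to 5.68. At E13.5, replicate 2 had 6.751 CPM of n270329 (Gcat) against 2.35 to 4.11 and 1.871 CPM of n288413 (Prkce) against 0.468 to 1.07. E13.5 replicate 4 had 4.211 CPM of n294798 (Grtp1) against 1.20 to 2.27, and replicate 6 had 0.6642 CPM of n270199 against 1.31 to 1.63.

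At 6 weeks, replicate 2 had 6.734 CPM of n287588 (Gata6) against 2.03 to 3.66. At 16 weeks, replicate 1 had 2.79 CPM of n420700 (Ttc39a) against 0.423 to 0.965, replicate 3 had 7.951 CPM of n270329 against 4.18 to 4.72, replicate 5 had 161.5 CPM of n270541 (Actb) against 202.1 to 225 and replicate 6 had 7.61 CPM of n287593 (AA474408) against 11.5 to 13.7. In sham hearts, replicate 2 had 2.87 CPM of n276918 (Taf8) against 6.47 to 7.04, a value within the TAC range of 1.81 to 3.01 CPM.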

How the results depend on the processing

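The numbers below are divergent lncRNAs called higher, called lower, and pairs called in the same direction. With no low-count filter they were 19 higher and 13 pairs in TAC against sham, 1 higher and 3 lower at 16 against 6 weeks, 208, 105 and 209 in E13.5 against unoperated adults, and 201, 119 and 195 in E13.5 against sham. A filter of 1 CPM in every library of a group gave 70, 37 and 73 in E13.5 against unoperated adults and 1 lower at 16 weeks. One fit over all 27 libraries gave 87, 67 and 105 in E13.5 against unoperated adults and 2 lower at 16 weeks. DESeq2 called 1 higher and 1 lower at 16 weeks, and limma-voom 1 higher. Restricting the lncRNAs to 5' ends within 1 kb left 8 lower in TAC hearts, 14, 14 and 20 in E13.5 against unoperated adults and 63, 31 and 60 in E13.5 against sham, as the construction of a smaller set implies. Within 2 kb there were 10 lower in TAC hearts, and 17 higher and 24 pairs in E13.5 against unoperated adults. Only lncRNAs with at least 50% of their exonic bases to themselves left 5 higher in TAC hearts.

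Leaving out 1 library at a time gave 4 to 11 higher, 15 to 19 lower and 3 to 10 pairs in TAC hearts, 0 to 1 higher, 0 to 1 lower and 0 pairs at 16 weeks, 25 to 36, 21 to 24 and 30 to 44 in E13.5 against unoperated adults, and 96 to 105, 42 to 49 and 86 to 93 in E13.5 against sham. Same-numbered libraries did not deviate together, with r of -0.030 to 0.048, and the replicate number was not used as a pairing. Shared litters or operating days were not tested. With the replicate number as a block, TAC hearts had 5 higher and 12 lower, where the same libraries without the block had 13 lower, and 1 was lower at 16 weeks. Among named lncRNAs, 779 values under other settings kept direction and side of the threshold, 14 passed newly and 24 no longer passed. Among pair ratios that passed their test, the sign changed with the pseudocount for n343216 in E13.5 against sham, 0.2684 at 1 CPM, and for n264775, 0.4631 at 0.1 CPM, and among those that did not pass it changed for n268635 and n294798 in E13.5 against sham, n265678 and n423639 in TAC against sham, and n414643 and n5654 in E13.5 against unoperated adults. None of these ratios is given on its own above. Low counts limit all of this, since 817 of the 1975 lncRNAs had 10 or more counts. For changes other than those built into a setting, the cause was not tested.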
